A study of Homo sapiens with 6 samples.

Results

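The MAGE family was followed in BCWM1, a long-established human line grown from Waldenström macroglobulinemia, which is a cancer of B cells and plasma cells that secrete IgM. Its members were taken as every probe set (a group of array probes aimed at 1 transcript) whose platform annotation holds only symbols beginning MAGEA, MAGEB, MAGEC, MAGED, MAGEE, MAGEF, MAGEH or MAGEL. The rule found 31 of the 54613 probe sets on the array. Of these, 27 carry 1 symbol and cover 23 genes, and 4 carry several symbols and are described apart. Another 4 probe sets name MAGEA5P, MAGED4 or MAGED4B beside a gene outside the family, and they did not enter. RNA came from 3 samples of parental cells and 3 samples of cells labelled mutated, both of BCWM1. The series title ties the mutation to the chemokine receptor gene CXCR4 and writes it as C1013G. The sources used here do not state how the mutated cells were made, whether they are 1 clone or whether a vector control exists. No label calls the samples of a group separate cultures. The spread behind each p-value is therefore that of these samples and may be technical.

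MAGE proteins share a folded region, the MAGE homology domain, and many of them bind a RING-type ubiquitin ligase and steer it to its substrates. The MAGEA, MAGEB and MAGEC genes, called type I, lie on the X chromosome and are normally active in the germ cells of the testis. They are silenced by DNA methylation in most other tissues and become active again in many tumours, plasma cell myeloma included, which is why they are called cancer-testis antigens. The type II genes, MAGED, MAGEE, MAGEF, MAGEH and MAGEL, are expressed in many normal tissues.

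Sequences in front of MAGEA genes whose probe sets fell are shown first, because 5 of these genes share stretches of letters there. They are the 250 bases before the RefSeq transcription start (GRCh38.p14), 5′ to 3′ on the gene's own strand, and for a gene with several starts the start furthest downstream was used. A window was found for 25 of the 28 symbols on member probe sets. MAGEA1, MAGEA10 and MAGEH1 had none. MAGEA1 is thus not shown, although it fell further than the probe set of MAGEA2 with MAGEA2B. Capitals mark stretches that MAGEA2, MAGEA2B, MAGEA3, MAGEA6 and MAGEA12 hold in common. The windows are MAGEA6 (chrX:152769690-152769939, minus strand), MAGEA12 (chrX:152733612-152733861, plus strand), MAGEA2 (chrX:152753843-152754092, minus strand), MAGEA4 (chrX:151918038-151918287, plus strand), a type I gene that was dim here, and MAGEF1 (chr3:184712065-184712314, minus strand), a type II gene that rose.
MAGEA6: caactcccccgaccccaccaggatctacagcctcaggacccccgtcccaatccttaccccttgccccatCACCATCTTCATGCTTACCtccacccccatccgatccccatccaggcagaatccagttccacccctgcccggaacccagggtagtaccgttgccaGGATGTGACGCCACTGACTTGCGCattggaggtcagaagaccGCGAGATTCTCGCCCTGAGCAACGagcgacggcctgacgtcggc
MAGEA12: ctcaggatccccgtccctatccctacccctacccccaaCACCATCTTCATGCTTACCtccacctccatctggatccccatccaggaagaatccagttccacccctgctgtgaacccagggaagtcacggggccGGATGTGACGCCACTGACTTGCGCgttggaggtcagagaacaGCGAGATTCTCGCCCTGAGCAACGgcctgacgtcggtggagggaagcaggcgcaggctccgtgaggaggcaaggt
MAGEA2: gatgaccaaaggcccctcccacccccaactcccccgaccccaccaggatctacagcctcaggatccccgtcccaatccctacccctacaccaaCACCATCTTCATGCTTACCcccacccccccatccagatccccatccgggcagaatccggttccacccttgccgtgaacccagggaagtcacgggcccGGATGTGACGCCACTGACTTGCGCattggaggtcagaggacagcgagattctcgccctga
MAGEA4: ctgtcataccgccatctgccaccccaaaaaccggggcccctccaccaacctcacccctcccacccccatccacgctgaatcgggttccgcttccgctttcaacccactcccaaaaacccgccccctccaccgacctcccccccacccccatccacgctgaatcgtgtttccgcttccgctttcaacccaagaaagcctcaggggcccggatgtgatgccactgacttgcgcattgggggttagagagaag
MAGEF1: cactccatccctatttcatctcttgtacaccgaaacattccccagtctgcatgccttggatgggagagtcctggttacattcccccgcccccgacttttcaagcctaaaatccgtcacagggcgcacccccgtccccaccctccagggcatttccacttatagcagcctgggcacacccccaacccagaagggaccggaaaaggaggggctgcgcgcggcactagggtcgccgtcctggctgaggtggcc

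MAGEA3 (chrX:152698544-152698793, plus strand) and MAGEA6 had 0 mismatches over the whole window of 300 bases, which runs 50 bases past the start. MAGEA2 and MAGEA2B also had 0, as did MAGEA9 and MAGEA9B. The stretch GGATGTGACGCCACTGACTTGCGC was found in 11 of 35116 RefSeq windows of that length, searched on both strands, or 0.0313%. Those windows belong to the 5 named MAGEA genes and to CSAG1, CSAG3 and the divergent transcripts MAGEA3-DT and MAGEA6-DT. The stretch GCGAGATTCTCGCCCTGAGCAACG was held by 10 windows (0.0285%) of the same 9 genes, and CACCATCTTCATGCTTACC by 7 windows (0.0199%) of the 5 MAGEA genes alone. GGATGTGACGCCACTGACTTGCGC ends 62 bases before the start in MAGEA6, 93 in MAGEA12 and 36 in MAGEA2. The stretch GCGAGATTCTCGCCCTGAGCAACG runs past the start in MAGEA2 and is not in capitals there. MAGEA4, printed for contrast and too dim to test, holds the same letters as GGATGTGACGCCACTGACTTGCGC with 1 mismatch of 24, MAGEA9 and MAGEA9B with 2, and MAGEA8 with 3. With a few mismatches, that stretch is therefore not limited to the 5 genes. Outside the 5 genes, the fewest mismatches to the other two stretches were 6 and 9 among MAGE windows. All of these stretches were sought as letters common to the windows of 5 genes set beforehand, with their falls known. That all 5 hold them was therefore fixed by this choice and is no support for a link with the falls. The stretches were picked out after the sequences were seen and are a description of letters, not of binding sites. Among shorter letters, GGGCGG (a core bound by the factor SP1) stood in windows of 13 of the 25 MAGE genes, against 45% of all windows. TTCCGG (an ETS factor core) stood in 6, against 17.2%, and CACGTG (an E-box) in 0, against 7.26%. Here a gene counted if any of its windows held the letters, while the shares are of single windows. The 6 include MAGED1, whose window at the start furthest downstream holds no TTCCGG, and the identical windows of MAGEA3 and MAGEA6. The MAGEA6 window holds 19 CG pairs, the sites of DNA methylation, MAGEA12 15 and MAGEF1 21, beside a median of 14 over all windows.

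MAGEA6, MAGEA12, MAGEA1 and the probe sets shared by MAGEA6 with MAGEA3 and by MAGEA2 with MAGEA2B were above the array medians in parental cells and below them in mutated cells. The probe set of MAGEA9 and MAGEA9B fell less and stayed above them, while MAGED1, MAGED2, MAGEF1 and MAGEH1 were somewhat higher in mutated cells. Intensity is the authors' linear value per probe set, and array medians ran from 28.46 to 31.83. Changes are differences of log2(intensity + 16), mutated minus parental, which understates the change of dim genes. Probe sets among the dimmest 40% by mean over all samples were not tested. All 32768 others were fitted with limma, and a probe set was called at a Benjamini-Hochberg adjusted p under 0.05. The test was passed in either direction by 47.5% of tested probe sets, with 16.6% lower and 30.9% higher.

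MAGEA6, whose product partners the ubiquitin ligase TRIM28, had intensities of 475, 443 and 437 in parental cells and 7.46, 13.2 and 10.9 in mutated cells. Every mutated value was below the array medians and every parental value far above them. The log2 change was −4.15 (SE 0.088, adjusted p = 6.2e-07 by limma and Benjamini-Hochberg), which ranked 4 from the largest fall. The probe set annotated to both MAGEA6 and MAGEA3 gave 401, 400 and 401 in parental cells against 15.4, 9.19 and 15.7 in mutated cells. Its log2 change was −3.83 (SE 0.095, limma, adjusted p = 1.0e-06). MAGEA12 gave 298, 297 and 296 in parental cells and 11.99, 11.4 and 7.82 in mutated cells. It fell by 3.57 on the log2 scale (SE 0.071, limma, adjusted p = 5.2e-07). In these 3 probe sets the 3 parental samples lay close together and the groups did not overlap. Such a lack of overlap, in either direction, was seen in 57.8% of all tested probe sets (21.4% lower).

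MAGEA1, the first family member known as a tumour antigen, was dimmer. Its parental intensities were 61.3, 66.3 and 44.6, and its mutated ones 1.35, 1 and 1. The log2 change was −2.09 (SE 0.11, limma, adjusted p = 2.5e-05). It passed the filter narrowly, and under 5 of 15 other settings it was left out as too dim, among them each setting without 1 parental sample. The mutated means of MAGEA6, MAGEA12, MAGEA1 and the probe set of MAGEA6 with MAGEA3 were all under the filter limit (a mean log2 value of 5.09). Each was tested because of its parental values, so that these probe sets had to differ, and their number is no support in itself.

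Some probe sets of paired copies moved less. The probe set of MAGEA2 and MAGEA2B gave 52.4, 39.6 and 40.8 in parental cells and 15.03, 14.97 and 15.9 in mutated cells, a log2 change of −0.94 (SE 0.086, limma, adjusted p = 2.5e-04). Its mutated mean was also under the filter limit. The other probe set of this pair was too dim to test, with no value above 14.9. The probe set of MAGEA9 and MAGEA9B gave 81.9, 92.7 and 103 in parental cells and 54.0, 57.6 and 56.4 in mutated cells. It fell by 0.59 on the log2 scale (SE 0.078, limma, adjusted p = 0.0012) and, unlike the others, stayed above the array medians in mutated cells. MAGEA8 gave 16.2, 23.0 and 22.4 in parental and 25.4, 18.2 and 22.3 in mutated cells. The groups overlapped, and the log2 change of 0.056 (95% interval −0.19 to 0.30) did not pass (limma, adjusted p = 0.68), so a small change of either sign cannot be told from none.

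The probe sets of MAGEA6, MAGEA12 and MAGEA1 and that of MAGEA6 with MAGEA3 all end in _x_at, the suffix for probes that can bind several transcripts. Because the family's genes are near-identical copies in places, a fall on 1 of these probe sets cannot be credited to 1 gene alone. Once probe sets ending in _s_at or _x_at were dropped, 0 MAGE genes with 1 symbol were called lower, since the 3 that fell have no other probe set that was tested. The probe sets of MAGEA2 with MAGEA2B and of MAGEA9 with MAGEA9B carry the plain suffix _at.

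**Figure D1:**
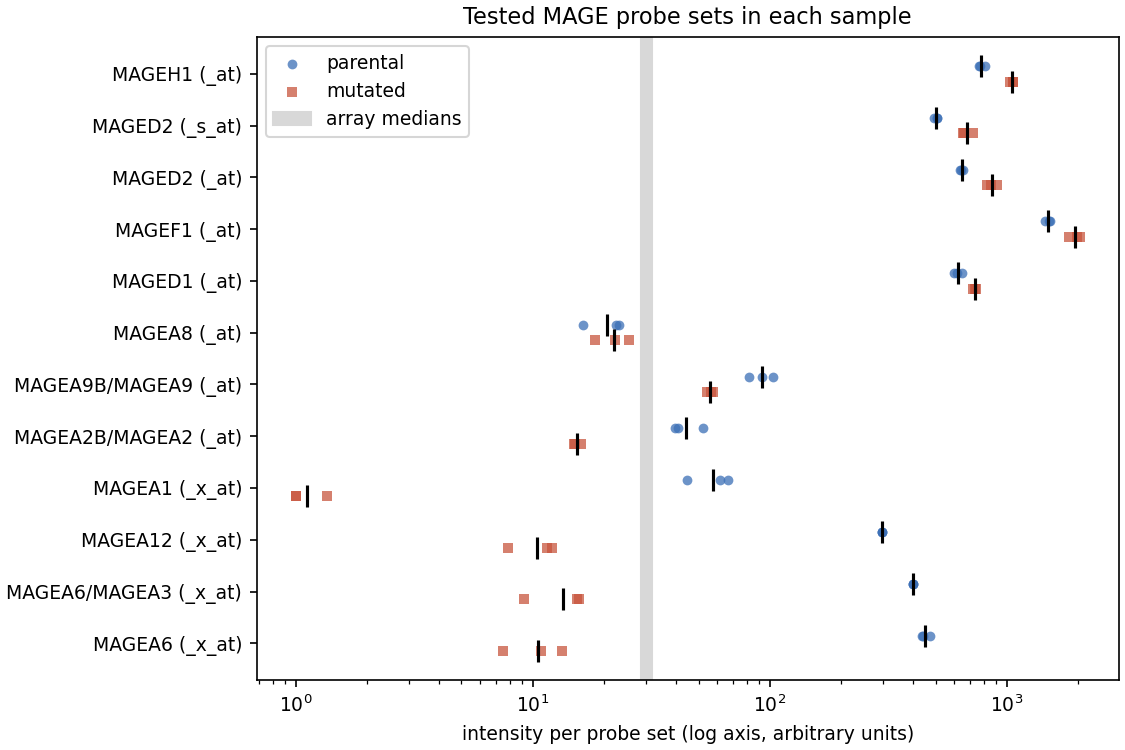
Intensity on a log axis for the 12 tested MAGE probe sets, with 1 point per sample (circles parental, squares mutated), a bar at each group mean and the range of the 6 array medians in grey. Parental values of MAGEA6 and MAGEA12 lie between 296 and 475 and their mutated values between 7.46 and 13.2, while the 5 MAGED, MAGEF and MAGEH probe sets differ by a small step to the right.

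The remaining type I genes were dim in both groups. MAGEA4, MAGEA10, MAGEA11, all of MAGEB and all of MAGEC had 14 probe sets left out of the test, whose highest single value was 25.8 (MAGEA11). Values this low do not show that the genes were silent. Groups failed to overlap in 3 of the 14 (2 lower, 1 higher), beside 16.3% of all probe sets left out as dim, with 6.93% lower. One probe set of MAGEC2, whose product also partners TRIM28, gave 16.3, 21.7 and 17.2 in parental and 3.20, 7.87 and 5.16 in mutated cells. With no filter its log2 change was −0.69 (limma, adjusted p = 0.0043), but the other MAGEC2 probe set gave 0.17 (adjusted p = 0.58). MAGEA11, known as a coregulator of the androgen receptor, gave 15, 13.9 and 12.6 in parental and 25.8, 18.8 and 20.4 in mutated cells, a log2 change of 0.33 with no filter (limma, adjusted p = 0.031). MAGEC3 stood between 1 and 1.48 in all 6 samples, where its order carries no measured difference (with no filter, limma, adjusted p = 0.74). The 7 MAGEB probe sets, of 6 genes, overlapped between groups and did not pass with no filter.

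Among type II genes, MAGED1, MAGED2, MAGEF1 and MAGEH1 rose modestly. MAGED2, whose loss causes a transient kidney salt-wasting disease of the fetus, gave 655, 635 and 641 in parental and 856, 825 and 905 in mutated cells on its brighter probe set. The log2 change was 0.41 (SE 0.053, limma, adjusted p = 0.0011). Its other probe set, 509, 491 and 506 against 720, 653 and 660, gave 0.42 (SE 0.056, limma, adjusted p = 0.0012), so both probe sets of the gene moved by the same amount within their errors.

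MAGEH1, a small protein of the family, gave 769, 764 and 804 in parental and 1063, 1027 and 1057 in mutated cells, a log2 change of 0.42 (SE 0.048, limma, adjusted p = 6.0e-04). MAGEF1, which partners the ligase NSMCE1 and lies on chromosome 3, gave 1514, 1508 and 1445 against 2024, 1967 and 1833. Its log2 change was 0.38 (SE 0.056, limma, adjusted p = 0.0020). MAGED1, also known as NRAGE, an adaptor of the neurotrophin receptor NGFR, gave 600.1, 615 and 643 against 742, 731 and 718. Its log2 change was 0.23 (SE 0.049, limma, adjusted p = 0.0086). On each of these 5 probe sets the 3 mutated values lay above the 3 parental ones, and such a lack of overlap, in either direction, was seen in 57.8% of all tested probe sets (21.4% lower).

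These rises are of a common size. MAGEH1 ranked 5387 and MAGED1 9940 among 32768 tested probe sets from the largest rise down, whereas MAGEA6 ranked 4 and MAGEA12 9 from the largest fall. A fall of at least 2-fold on this scale was called in 1.29% of tested probe sets and a rise of that size in 3.17%. The median change of all tested probe sets was 0.060, and with each array centred on its median it was −0.019. With that centring MAGED1 did not pass (log2 change 0.15, limma, adjusted p = 0.054), while MAGED2, MAGEF1 and MAGEH1 passed with changes from 0.30 to 0.34. MAGEE1, MAGEE2 and MAGEL2, the last a gene of the imprinted Prader-Willi region, were too dim to test on their 4 probe sets. Their values reached 38.7 in 1 parental sample of MAGEE1, where the other two were 4.99 and 16.6, and the groups overlapped on all 4.

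**Figure D2:**
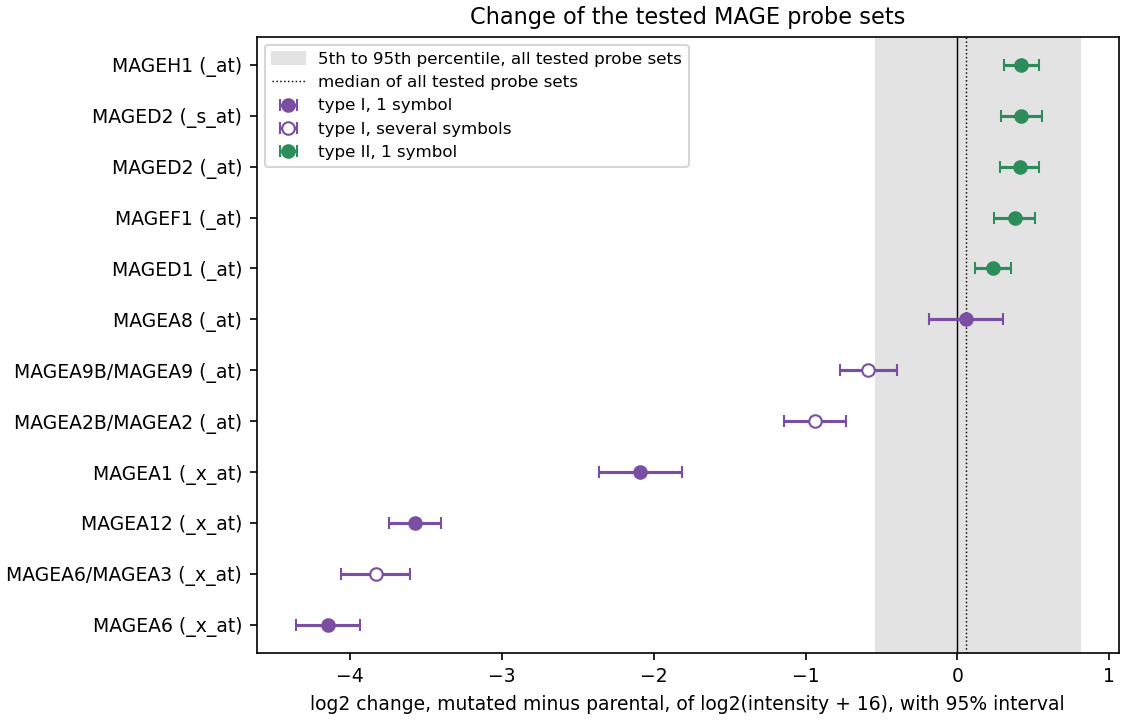
Log2 change (mutated minus parental) with its 95% interval for the 12 tested MAGE probe sets, filled for 1 symbol and open for several, over the 5th to 95th percentile of all tested probe sets in grey. The MAGEA probe sets other than MAGEA8 lie at or left of −0.59 and the type II probe sets lie between 0.23 and 0.42, inside the grey band.

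In RefSeq order along the X chromosome, the genes that fell most sit together. The stretch from MAGEA3 to MAGEA6 lists 10 genes in the order MAGEA3, CSAG2, LOC124905224, MAGEA2B, CSAG1, MAGEA12, CSAG4, MAGEA2, CSAG3 and MAGEA6. All 5 tested probe sets of this stretch were lower, but each had a mutated mean under the filter limit and was tested because of its parental values, so their number is no support. Of these, 4 are the MAGE probe sets already given, and the fifth is annotated to CSAG2 and CSAG3, cancer-testis genes that lie between the MAGEA genes. It gave 64.1, 62.7 and 49.3 in parental and 2.94, 12.5 and 4.88 in mutated cells, a log2 change of −1.73 (SE 0.16, limma, adjusted p = 2.8e-04). Which of these CSAG genes it measured cannot be told from its annotation.

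Apart from MAGE genes, most tested probe sets on either side were not called, while 47.5% of all tested probe sets were called. None of these flanking probe sets fell as far as those of the stretch. MAGEA1, which lies beyond the stretch, fell by 2.09, further than MAGEA2 with MAGEA2B or the CSAG probe set inside it. After the stretch, as far as HAUS7 and with MAGEA1 set aside, 11 tested probe sets of other genes ran from −0.42 to 0.34, with 1 called lower, 1 higher and 9 not called. CETN2, which encodes a centrin and follows MAGEA6 closely, had means of 422 ± 25.1 in parental and 537 ± 11.6 in mutated cells (SD, n = 3). It rose by 0.34 on the log2 scale (SE 0.058, limma, adjusted p = 0.0037). Before the stretch, back to MAGEC3, 36 tested probe sets of other genes ran from −0.49 to 0.94, with 2 called lower, 7 higher and 27 not called. The highest of these was HSFX3, a relative of the heat shock factors and the gene next to MAGEA9B, with 9.87 ± 1.96 in parental and 33.6 ± 3.69 in mutated cells (SD, n = 3; limma, adjusted p = 1.8e-04). The parental mean of HSFX3 was under the filter limit. It was tested because of its mutated values, so its call is no support in itself. Over the whole X chromosome without MAGE, 33.3% of 445 tested genes were called higher and 16.6% lower, against 30% and 18.9% of 13171 autosomal genes. The neighbourhood was laid out with the MAGEA falls already known, so it describes where they lie and tests nothing.

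**Figure D3:**
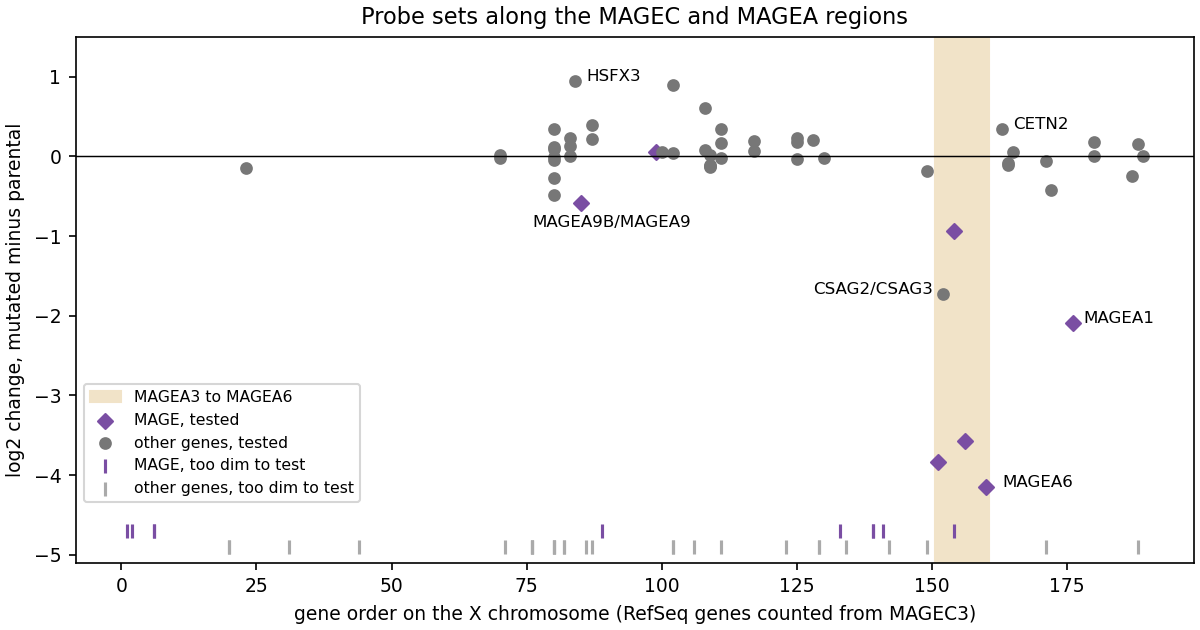
Log2 change (mutated minus parental) of each probe set along RefSeq gene order on the X chromosome, counted from MAGEC3, with diamonds for MAGE, circles for other genes and ticks at the bottom for probe sets too dim to test. The 5 tested probe sets between MAGEA3 and MAGEA6 (shaded) lie between −4.15 and −0.94, and those of the other genes on both sides lie between −0.49 and 0.94.

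Of 3 relatives with the same domain but other symbols, NSMCE3, a subunit of the SMC5/SMC6 complex of DNA repair, had means of 3032 ± 94.7 and 3666 ± 177 (SD, n = 3). It rose by 0.27 on the log2 scale (SE 0.057, limma, adjusted p = 0.0081). TRO, the gene of trophinin, gave −0.24 (limma, adjusted p = 0.13), and NDN was too dim to test. Genes of proteins that bind MAGE proteins, or on which MAGE ligases act, moved both ways. Of 27 tested, 7 rose, 8 fell and 12 did not pass, a called share of 55.6% beside 49% of all tested genes (30.1% higher, 18.9% lower). Their median change was −0.062.

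PJA1, the ligase known as a partner of MAGED1, gave 352, 358 and 335 in parental and 103, 106 and 91.9 in mutated cells. It fell by 1.65 on the log2 scale (SE 0.065, limma, adjusted p = 6.0e-06), opposite in sign to MAGED1. TRIM28, the ligase and corepressor partnered by MAGEA3, MAGEA6 and MAGEC2, gave 569, 519.9 and 489 against 343, 340.1 and 342. It fell by 0.60 (SE 0.064, limma, adjusted p = 4.9e-04). BIRC7, an inhibitor of apoptosis, fell by 0.64 (SE 0.16, limma, adjusted p = 0.018) and SMC6, which forms the complex that NSMCE3 belongs to, rose by 0.56 (SE 0.044, limma, adjusted p = 1.2e-04). Their groups did not overlap, which was so, in either direction, for 57.8% of all tested probe sets.

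Other cancer-testis families moved both ways. Of 84 genes listed, 60 had a probe set with 1 symbol and 26 were bright enough to test. Of these, 4 rose, 5 fell and 17 did not pass, a called share of 34.6% beside 49% of all tested genes. Their median change was −0.028. CTAG2, a relative of the antigen NY-ESO, gave 45.1, 49.7 and 54.0 against 20.3, 24.3 and 25.3, a log2 change of −0.74 (SE 0.076, limma, adjusted p = 3.9e-04). PRAME, an antigen of melanoma and leukaemia, changed by −0.67 (SE 0.16, limma, adjusted p = 0.014). SAGE1, from 21.2 ± 3.61 to 45.9 ± 6.76 (SD, n = 3), and TSGA10, from 16.1 ± 6.52 to 44.01 ± 9.87, changed by 0.73 and 0.91 (limma, adjusted p = 0.0016 and 0.0058). The parental mean of TSGA10 was under the filter limit. It was tested because of its mutated values, so its call is no support in itself. The count is unsteady, with 2 called when the dimmest 60% were left out and 5 without parental replicate 2.

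Regulators of DNA methylation and silent chromatin, listed because they are known to keep cancer-testis genes silent or active, moved both ways as well. Of 41 tested, 12 rose, 10 fell and 19 did not pass, a called share of 53.7% beside 49% of all tested genes. Their median change was 0.0026. DNMT1, the maintenance DNA methyltransferase, gave 4545 ± 113 and 4553 ± 73.9 (SD, n = 3), and its log2 change was 0.0026 (limma, adjusted p = 0.97). UHRF1, which brings DNMT1 to replicated DNA, fell by 0.46 (SE 0.047, limma, adjusted p = 3.8e-04). TET3, an enzyme of DNA demethylation, fell by 0.41 (SE 0.056, limma, adjusted p = 0.0014), and SETDB2, a histone methyltransferase, rose by 0.47 (SE 0.060, limma, adjusted p = 0.0010). TRIM28 is on this list as well. Of the genes other than MAGE near the MAGEA and MAGEC clusters, 24 of 50 were tested. MTM1, CETN2, CD99L2 and HMGB3 rose, ZFP92 fell and 19 did not pass, a called share of 20.8% beside 49% of all tested genes. MTM1, a lipid phosphatase, changed by 0.61, but by 0.085 on its other probe set. The other tested probe sets of CD99L2 (0.16 and −0.021) and HMGB3 (0.063) were not called. IDS did not pass on its brightest probe set but was called lower on others (−0.28 and −0.49), with the rest not called. TMEM185A did not pass either, but was called higher on its other tested probe set (0.39). The list gave 3 calls without mutated replicate 1, mutated replicate 2 or parental replicate 1.

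**Figure D4:**
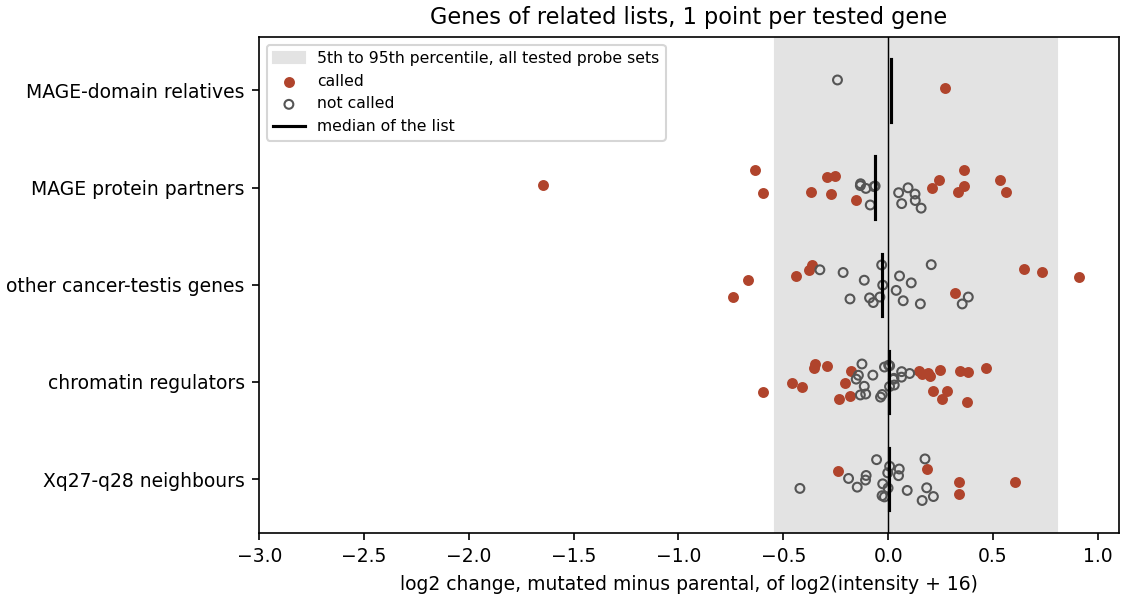
Log2 change (mutated minus parental) of each tested gene in 5 related lists, filled where called and open where not, with the median of each list as a bar and the 5th to 95th percentile of all tested probe sets in grey. All list medians lie between −0.062 and 0.015, and PJA1 at −1.65 is the point furthest left.

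The labelled cell type was checked on its markers. All 12 B lymphoid and plasma cell markers with a probe set were tested, IGHM among them at 9118 ± 324 in parental and 6629 ± 267 in mutated cells (SD, n = 3). Their summed intensity was 42093 to 43573 in parental and 35077 to 36470 in mutated samples, with 7 lower, 2 higher and 3 not called. Most plasma cell genes among them fell, while the B cell genes moved both ways. IGHM and JCHAIN changed by −0.46 and −0.48 on their brightest probe sets (limma, adjusted p = 7.8e-04 and 0.0010). The 3 other tested probe sets of IGHM ran from −0.26 to 0.74, so they did not all move the same way. TNFRSF17, the receptor BCMA, changed by −1.89 (3417 ± 91.3 to 911 ± 40.1, SD, n = 3), PRDM1, a regulator of plasma cell fate, by −1.59, SDC1 by −0.87 and CD38 by −0.65 (limma, adjusted p from 1.7e-06 to 3.0e-04). XBP1, at −0.10, did not pass (adjusted p = 0.10). Of the B cell genes, CD79B rose by 0.63 on its brightest probe set, with −0.21 and 0.17 on its 2 others. CD79A rose by 0.23 and CD22 fell by 0.41. MS4A1 at −0.03 and PAX5 at 0.07 did not pass (limma, adjusted p = 0.68 and 0.32). Sums were 171 to 207 and 164 to 220 for 10 T and NK cell markers, of which CD3D, CD3E and CD3G were too dim to test. They were 59.7 to 70.8 and 48.5 to 84.6 for 2 erythroid markers, and 845 to 916 and 537 to 657 for 8 stromal and epithelial markers, of which COL1A1 fell. Myeloid markers summed to 735 to 781 in parental and 2767 to 2879 in mutated samples over 7 genes, a difference carried by S100A9 (674 ± 26.7 to 2734 ± 64.4, SD, n = 3), while CD14 and LYZ were too dim to test. The part of these shifts in the MAGE results was not tested. In such bulk samples, fewer cells with a transcript and less of it per cell cannot be told apart.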

How the data were processed

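Each deposited value is a linear intensity computed by the authors for a probe set, in 3 parental and 3 mutated samples grouped by their titles. The sources used here state neither background correction, summary method nor scaling between arrays. Symbols came from the platform annotation (1 symbol for 41091 probe sets, several for 1801, none for 11721), and 41037 of those with 1 symbol matched a RefSeq table of assembly GRCh38.p14 by Entrez ID, with 0 symbols changed.

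Values were taken as log2(intensity + 16), the dimmest 40% of probe sets were left out, and limma 3.58.1 (R 4.3.3; lmFit, eBayes, two-sided, Benjamini-Hochberg over all 32768) compared the groups with no covariate. A gene in a list is its brightest tested probe set with 1 symbol. Members, lists and tests were chosen with earlier results of these data known. The rule for values in every sample was a group mean of at least 100, or a called change of at least 2-fold, and other tested MAGE probe sets were added. Up to 4 called genes of each list, with the largest changes, were to be named, and TRO, NDN, HMGB3, DNMT1, HSFX3, the CSAG probe set, the marker genes and the dim MAGE probe sets with values in every sample were added after their values were seen.

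On simulated data for this comparison, with 200 of 32768 probe sets shifted, 47% of shifts of 0.5 and 90% of shifts of 1 (log2) were recovered, with 7 false calls. In the real data 47.5% of tested probe sets were called, a far larger share than was shifted. The Benjamini-Hochberg cut-off depends on that share, so these rates need not hold for the real comparison. Alternatives were quantile normalization, median centring, no filter, a 60% filter, pseudocounts 1 and 64, trend and robust eBayes, array weights, a replicate block, each sample left out, averaging all probe sets of a gene, and no probe sets of suffix _s_at or _x_at. Python 3.11.15 and matplotlib 3.10.9 drew the figures. The 6 arrays limit the precision, most for dim probe sets.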

Additional observations from a re-analysis of the deposited data

How the results depend on the processing

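The 11 MAGE probe sets tested other than MAGEA8 kept their sign under every alternative in which they were tested, and all of them kept their call except MAGED1 with median centring (0.15, limma, adjusted p = 0.054). MAGEA6 ran from −5.33 (pseudocount 1) to −2.79 (pseudocount 64) and MAGEA12 from −4.73 to −2.28. The changes of the dimmer members depended on the pseudocount as well. With pseudocount 64 MAGEA1 was at −0.89, MAGEA2 with MAGEA2B at −0.45 (−1.46 with pseudocount 1) and MAGEA9 with MAGEA9B at −0.38. MAGEA8, not called in any of these settings, turned sign with median centring (−0.023), without mutated replicate 1 (−0.0081) and without parental replicate 1 (−0.032), and ran from −0.032 to 0.13 when a sample was left out. Of the 9 tested MAGE probe sets with 1 symbol, 3 were called lower and 5 higher, beside 16.6% and 30.9% of all tested probe sets. The MAGE counts were 2 to 3 and 5 to 6 when a sample was left out. Under the other settings they were 2 to 4 and 4 to 6. Without the suffixes _s_at and _x_at, 0 MAGE genes were lower and 5 other cancer-testis genes were called in place of 9. With the dimmest 60% left out, 2 other cancer-testis genes were called. MAGE-domain relatives gave 2 calls in place of 1 with quantile normalization. With a sample left out, called genes numbered 5 to 10 for other cancer-testis genes, 3 to 5 for Xq27-q28 neighbours (5 with all samples) and 1 to 2 for MAGE-domain relatives. Of all calls 65.1% were higher, a share that was 49.97% after quantile normalization and 50.7% after median centring. Replicate numbers are shared between groups. Deviations of same-numbered samples correlated by 0.11, 0.027 and 0.11, and those of differently numbered samples by −0.11 to 0.0028. The same-numbered values were thus higher but small, and the samples were not taken as pairs in the main fit. With the replicate block 3 MAGE probe sets with 1 symbol were lower and 5 higher, and all tested probe sets gave 5212 lower and 9685 higher, in place of 5433 and 10120. Most probe sets of the family were too dim to test, which limits what can be said of MAGEB, MAGEC, MAGEE and MAGEL2.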
